A study of Mus musculus with 598 samples.

Results

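Fibroblast growth factor (FGF) ligands and receptors were followed in single cells of gastrulating mouse embryos, sorted for a Mesp1-GFP reporter. The members were taken by symbol and were the ligands Fgf3, Fgf4, Fgf5, Fgf8 and Fgf10 and the receptors Fgfr1 and Fgfr2, 7 of the 40912 genes in the deposited table, and all 7 were measured. Of 598 cells, each sequenced as its own library, 85 came from knockout embryos of stage E6.75, 83 and 89 from wild type of the same stage in a pair of library sets described further on, and the others from wild type of stage E7.25. All groups share the sort for the GFP reporter, the labels call the cells Mesp1+ and give the period as gastrulation, and they name neither the deleted gene nor any embryo, strain or pool. The comparisons ask which FGF genes differ between knockout and wild type, which differ between the stages, and which cells carry each gene.

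FGF ligands are secreted proteins that bind receptor tyrosine kinases on the cell surface together with heparan sulfate chains. The bound receptors signal through the adaptor Frs2, Ras and the ERK kinases, and genes such as Dusp6 and the Sprouty genes act back on the pathway as inhibitors. In the gastrulating mouse embryo Fgf8 and Fgf4 are known from the primitive streak, Fgf5 from the epiblast and Fgf3 from the streak and the mesoderm leaving it. Loss of Fgf8 or Fgfr1 is known to hold back the migration of mesoderm from the streak. Fgf10 is best known from limb, lung and later heart mesoderm, where it signals through Fgfr2.

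The ligand genes lie apart from each other except for Fgf3 and Fgf4, which sit side by side on chromosome 7 with Fgf15 next to them. The 3 genes span 62871 bp (chr7:144838083-144900953, GRCm38), with 2930 bp between Fgf3 and Fgf4 and 31287 bp between Fgf4 and Fgf15. The 250 bases before the RefSeq start (GRCm38.p6) are shown for the 4 ligands with a matching RefSeq window. RefSeq windows matched 5 of the 7 members, with none for Fgf8 or Fgfr1, and the window of Fgfr2 is not printed. Of the ligands shown, Fgf3 was lower and Fgf5 higher in the knockout. Fgf4 and Fgf10 took both signs over the alternative settings given further on. Each is written 5′ to 3′ on the strand of its gene, with capitals marking matches on either strand to an E-box (CANNTG), the T-box core TCACACC, the TCF/LEF core CTTTGA or the TATA box TATAAA.
Fgf3 (chr7:144838362-144838611, plus strand): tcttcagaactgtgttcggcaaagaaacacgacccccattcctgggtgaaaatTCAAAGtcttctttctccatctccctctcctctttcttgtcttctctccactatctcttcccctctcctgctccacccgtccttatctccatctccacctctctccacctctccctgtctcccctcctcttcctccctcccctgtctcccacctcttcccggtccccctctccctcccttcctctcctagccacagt
Fgf4 (chr7:144861136-144861385, plus strand): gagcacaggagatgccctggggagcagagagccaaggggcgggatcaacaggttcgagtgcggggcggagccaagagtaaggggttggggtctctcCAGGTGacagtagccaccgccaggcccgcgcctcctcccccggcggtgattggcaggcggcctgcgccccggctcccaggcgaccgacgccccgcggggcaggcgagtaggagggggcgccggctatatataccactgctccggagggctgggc
Fgf5 (chr5:98253934-98254183, plus strand): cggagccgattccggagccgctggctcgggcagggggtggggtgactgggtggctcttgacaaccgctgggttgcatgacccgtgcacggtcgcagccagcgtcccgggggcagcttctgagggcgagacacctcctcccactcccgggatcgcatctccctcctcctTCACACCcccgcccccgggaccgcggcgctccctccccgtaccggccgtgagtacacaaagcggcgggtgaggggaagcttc
Fgf10 (chr13:118714449-118714698, plus strand): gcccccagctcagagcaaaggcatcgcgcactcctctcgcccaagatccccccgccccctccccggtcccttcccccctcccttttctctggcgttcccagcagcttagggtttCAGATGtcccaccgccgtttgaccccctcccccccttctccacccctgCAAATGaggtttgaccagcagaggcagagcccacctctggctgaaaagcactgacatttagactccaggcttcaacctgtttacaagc
The Fgf3 window held 1 match to CTTTGA and was made of C or T at 79.2% of its bases, against 42.4% in the Fgf4 window. The Fgf4 window held 1 E-box and the Fgf10 window 2, and the Fgf5 window held 1 TCACACC. Among 32851 RefSeq promoter windows of this length, 66.2% held CANNTG, 13.8% CTTTGA, 12.4% TATAAA and 3.33% TCACACC. A match is a run of letters and not a measured binding site, and no binding data were used here. The windows of Fgf4 and Fgf10 fall inside their longer GENCODE genes and outside annotated exons, that of Fgf3 has 17 bases in an annotated exon, and that of Fgf5 ends at the base before its GENCODE gene.

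Libraries came in a pair of sets, seen in the counts and not marked in the labels. Set 1 cells had reads of all of 8 genes such as Hoxd13 and Sox3, and set 2 cells had reads of 4 or fewer of them. All knockout cells belonged to set 1, as did 83 of the wild type cells of E6.75 and 50.7% of those of E7.25, and the rest were set 2. So the knockout was compared within set 1 and the stages within each set, and the knockout comparison shares its wild type cells with the stage comparison of set 1. Of 40912 genes, 95 separated the sets, with a share of cells with a read at least 70 points higher in set 1 at both stages. Of these 95, 0 were FGF members, as is likely for any 7 genes when so few are on the list. Levels of members can still differ between the sets, as those of Fgfr1 and Fgfr2 did at E7.25. Reads on genes per cell had a median of 689539 in E6.75 wild type of set 1, 940161 in the knockout, 807746 at E7.25 in set 1, and 1799029 and 2264484 at E6.75 and E7.25 in set 2. In set 1, Y-linked reads were present in 53 E6.75 wild type cells, 49 knockout cells and 95 E7.25 cells, and in set 2 in 0 cells. Mesp1 stood at 406 CPM (read counts scaled to the same total of reads on genes in every group) in the wild type of set 1 and at 7.40 CPM in the knockout. Because the labels name no embryo, each group counts as 1 sample: there is no test and no p-value, and the 95% intervals in parentheses (exact Poisson for summed reads, Clopper-Pearson for shares of cells) cover counting error only. They leave out differences between cells in level and between embryos, so meeting or separate intervals do not decide a comparison. Of the marker lists, bone marrow genes, which the protocol text in the labels names, summed to 2.58 to 6.15 CPM over the 5 sets of cells.

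**Figure D1:**
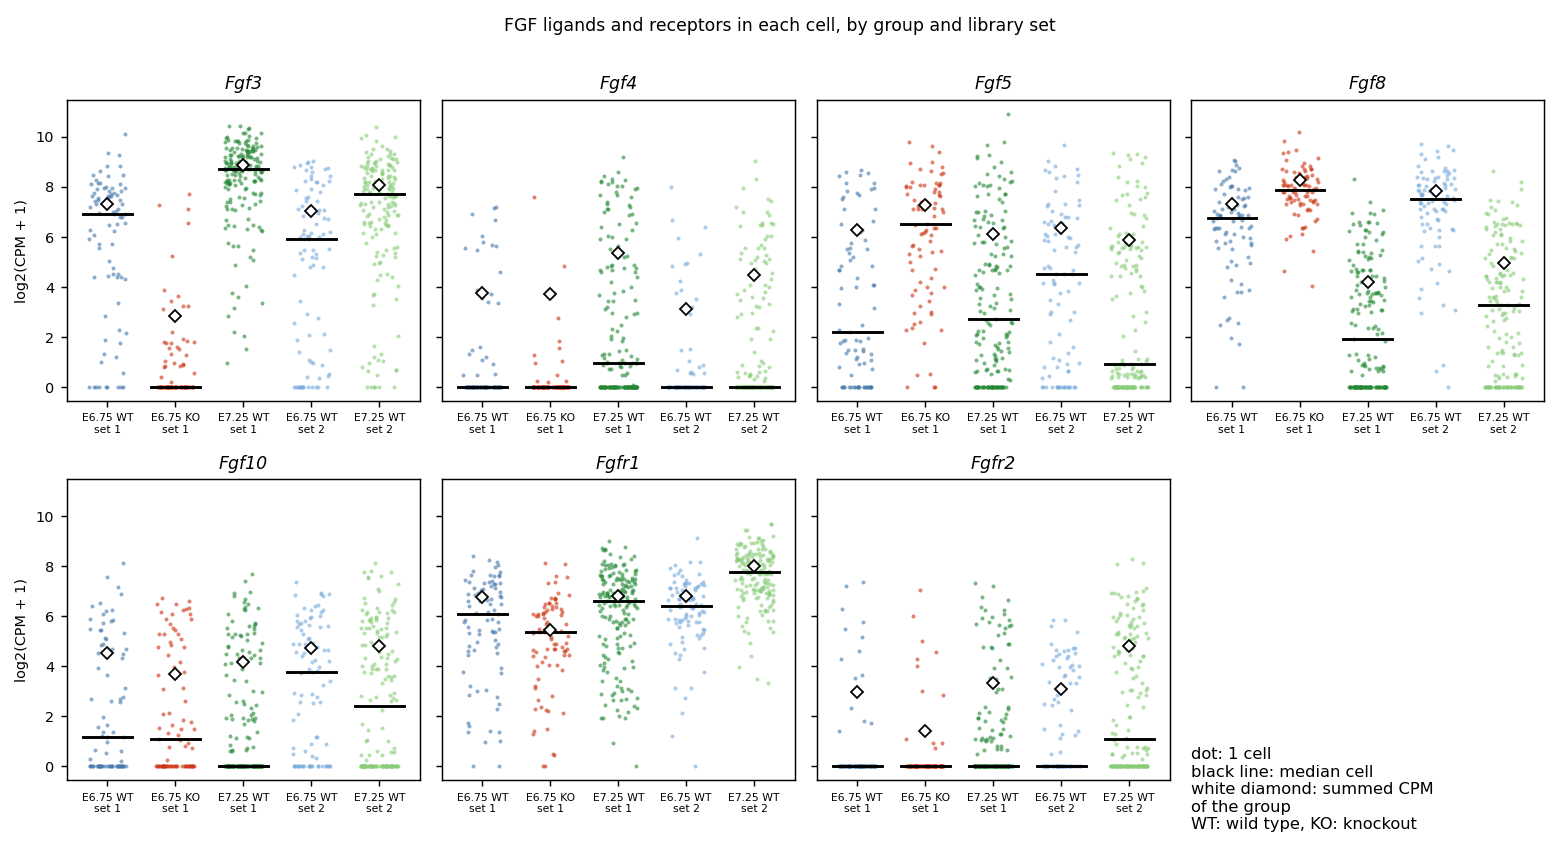
Level of each FGF member in each cell (vertical axis, log2 of CPM + 1) by group and library set; a dot is 1 cell, the black line the median cell and the white diamond the summed CPM of the group. Fgf3 is at 0 in the median knockout cell and at 121.5 CPM in the median wild type cell of set 1, and Fgf8 is at 106.4 CPM in the median E6.75 cell and at 2.83 CPM at E7.25 in the same set.

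Compared per length (CPM divided by kilobases of exon, RPKM), Fgf8 led in E6.75 wild type cells of set 1 at 116.8 RPKM, followed by Fgf3 at 68.01, Fgf5 at 30.6, Fgfr1 at 10.8, Fgf10 at 4.78, Fgf4 at 3.96 and Fgfr2 at 0.65 RPKM. Set 2 gave the same order at E6.75. In the knockout Fgf8 stood at 228.02 and Fgf5 at 60.9 RPKM, and Fgf3 moved from the second place to the fifth at 2.69 RPKM (2.49 to 2.89), where its interval meets that of Fgf10 at 2.56 (2.43 to 2.70). At E7.25 Fgf3 led in both sets, at 199.4 RPKM in set 1 and 114.7 in set 2. Below it stood Fgf5 at 27.3, then Fgf8 (interval of 12.55 to 13.45 RPKM) and Fgf4 at 12.58 RPKM (12.30 to 12.87) in set 1, the last pair with meeting intervals. In set 2 the receptor Fgfr1 was second at 25.9 RPKM, and Fgf5 at 22.97 (22.66 to 23.28) and Fgf8 at 22.26 RPKM (21.85 to 22.68) met.

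The ligands went in opposite directions in the knockout. Fgf3 was lower by more than 20-fold in summed CPM, Fgf5 and Fgf8 were higher by just under 2-fold, and Fgf4 and Fgf10 were on the lower side by less than 2-fold. Both receptors were lower by more than 2-fold. A gene was called when it had at least 5 CPM in the higher group and a ratio past 2-fold with 1 CPM added. By this rule 3 of the 7 members were called lower, where 5.78% of 10588 genes were, and 0 were called higher, where 3.2% were; in either direction it was 8.98%. The median log2 ratio was -0.85 over the 7 members and -0.03 over all genes tested.

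Fgf3 (ENSMUSG00000031074, chr7:144838083-144844436, plus strand) is a ligand of the streak and its mesoderm. In wild type cells of set 1 its lowest value was 0, its median 121.5 and its highest 1116 CPM, and the sum over cells was 158.2 CPM (155.7 to 160.7). In knockout cells the lowest and the median were 0 and the highest 210.6 CPM, with a sum of 6.25 CPM (5.80 to 6.73). The ranges overlapped, and 3 of 85 knockout cells lay above the wild type median. The log2 ratio was -4.46, and 0.0189% of the genes tested were as low or lower. Averaged over cells as log2(CPM + 1), Fgf3 was at 1.005 ± 1.79 (SD, n = 85 cells) in knockout and 5.70 ± 2.91 (SD, n = 83 cells) in wild type. With every cell thinned to 100000 reads, an Fgf3 read was left in 17.6% of the knockout (10.2 to 27.4%) and in 77.1% of the wild type (66.6 to 85.6%). One knockout cell held 52.1% of the group's Fgf3 reads, at 137.3 CPM, and 10 cells held 96.2%. Without the cell of most reads in each group the log2 ratio was -5.15. It was -6.04 among cells with Y-linked reads and -3.35 among cells without.

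Fgf8 (ENSMUSG00000025219, chr19:45736798-45742915, minus strand), the streak ligand needed for mesoderm migration, had the highest level per length of the 7 members in E6.75 cells of either genotype. Wild type cells of set 1 had a lowest value of 0, a median of 106.4 and a highest of 538 CPM, with a sum of 157.7 CPM (155.2 to 160.3). Knockout cells had a lowest value of 15.4, a median of 233.4 and a highest of 1158 CPM, with a sum of 307.8 CPM (304.6 to 311.1). All 85 knockout cells had an Fgf8 read after thinning, against 86.7% of wild type cells (77.5 to 93.2%), and 74 of the 85 lay above the wild type median. The log2 ratio was 0.96, just inside the 2-fold line, and 3.46% of the genes tested were as high or higher. The per-cell mean was 7.80 ± 1.02 (SD, n = 85 cells) in knockout and 6.26 ± 1.97 (SD, n = 83 cells) in wild type on the log2 scale. The spread over cells was thus narrower in the knockout on that scale only. In CPM the knockout range was the wider, at 15.4 to 1158 against 0 to 538 CPM.

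Fgf5 (ENSMUSG00000029337, chr5:98254184-98277030, plus strand), a ligand known as a marker of the epiblast, moved with Fgf8. Wild type cells of set 1 had a lowest value of 0, a median of 3.57 and a highest of 407 CPM, with a sum of 76.4 CPM (74.7 to 78.2). Knockout cells had a lowest value of 0, a median of 90.4 and a highest of 892 CPM, with a sum of 152.4 CPM (150.1 to 154.7). The log2 ratio was 0.99, and 79 of the 85 knockout cells lay above the wild type median. The share of cells with a read after thinning was 84.7% in knockout (75.3 to 91.6%) and 50.6% in wild type (39.4 to 61.8%). The ranges of the groups overlapped for both ligands. With each cell weighted equally Fgf5 passed 2-fold, at a log2 ratio of 1.30, and Fgf8 did not, at 0.99. Both passed it with factors from TMM (1.04 and 1.02) and without the deepest 10% of cells (1.14 and 1.02).

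The size of the Fgf5 and Fgf8 differences varied with the cells compared. Among cells with Y-linked reads the log2 ratio was 0.37 for Fgf5 and 0.68 for Fgf8, and among cells without them it was 2.96 and 1.74. Cells were also split by Cdh1, the epithelial cadherin lost when cells leave the streak, a split chosen after the data were seen. A Cdh1 read after thinning was present in 43 of 85 knockout cells and in 24 of 83 of the wild type. Without a Cdh1 read, Fgf8 was at 272.3 CPM in knockout and 88.4 in wild type (log2 ratio 1.61) and Fgf5 at 138.8 and 43.4 CPM (1.65). With a Cdh1 read, Fgf8 was at 332.3 and 309.3 CPM (0.10) and Fgf5 at 161.8 and 148.6 CPM (0.12). Fgf3 was lower in the knockout on both sides of the split, at 11.03 against 197.01 CPM without a Cdh1 read and 2.95 against 73.3 CPM with one.

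**Figure D2:**
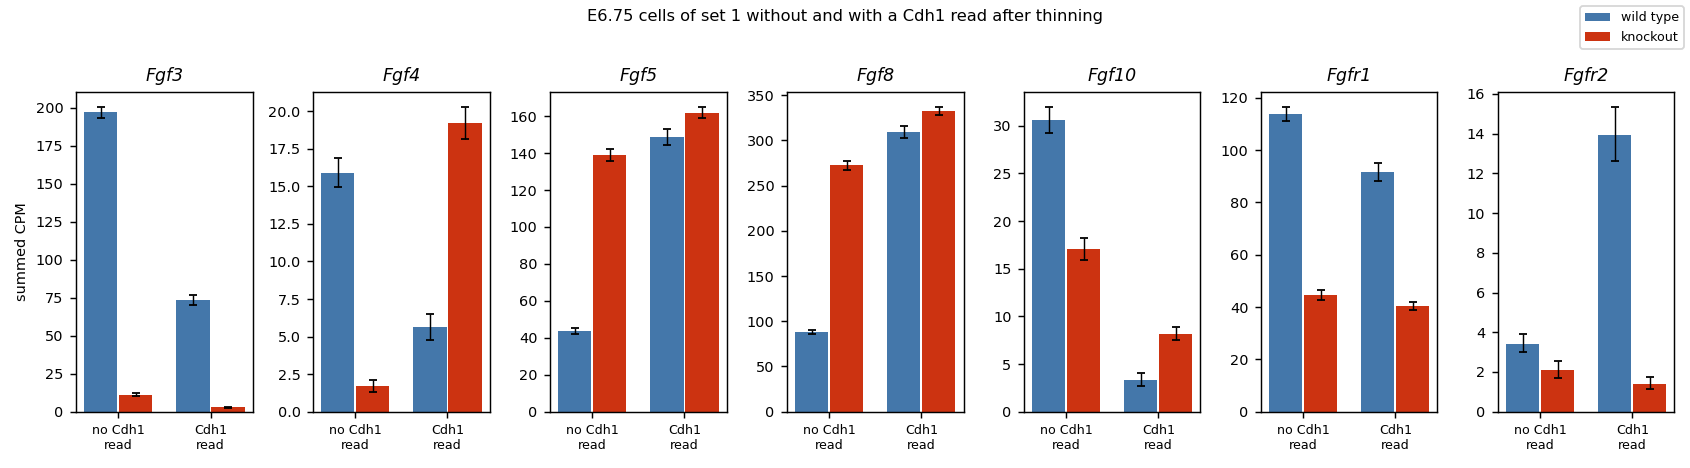
Summed CPM of each member (vertical axes, from 0, with a scale of its own per panel) in E6.75 cells of set 1 without and with a Cdh1 read after thinning, wild type in blue and knockout in red; whiskers are exact 95% Poisson intervals. Fgf8 is at 88.4 CPM in wild type and 272.3 in knockout without a Cdh1 read, and at 309.3 and 332.3 CPM with one, while Fgf3 is lower in the knockout in both.

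Markers of other cell states moved with these ligands. The epiblast list (12 genes, 0 of them at 0 reads) summed to 1935 CPM in wild type and 3047 CPM in knockout, over ranges of 326.4 to 4885 and 739 to 6364 CPM per cell, with 10 of 11 measured genes on the higher side and Utf1, Cldn6 and Fst past 2-fold. The nascent mesoderm list (8 genes, which hold Mesp1) summed to 1831 and 436 CPM, over 269.1 to 4845 and 19.998 to 1515 CPM per cell, with 7 of 7 measured genes on the lower side and 5 past 2-fold. The primitive streak list (9 genes, 0 of them at 0 reads) summed to 2351 and 3084 CPM, over 777 to 5127 and 158.2 to 12097 CPM per cell, with 6 of 9 genes on the higher side and Nodal past 2-fold. Of all genes tested, 5.78% were past 2-fold lower and 3.2% past 2-fold higher. Of later mesoderm markers, 3 of 6 measured paraxial, 3 of 5 cardiac, 3 of 5 haemato-endothelial and 4 of 6 extraembryonic mesoderm genes were past 2-fold lower and 0 were past 2-fold higher. The part of these shifts in the FGF differences was not tested, and fewer cells of a kind and less RNA per cell cannot be told apart in sums.

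Fgf4 (ENSMUSG00000050917, chr7:144847367-144865243, plus strand), a streak ligand next to Fgf3, was carried by few E6.75 cells. Wild type cells of set 1 had a lowest and median value of 0 and a highest of 145.6 CPM, and knockout cells had 0, 0 and 191.6 CPM. The sums of 12.7 (11.95 to 13.4) and 12.0 CPM (11.4 to 12.7) gave a log2 ratio of -0.07. One knockout cell held 93.7% of the knockout reads and one wild type cell 54.5% of the wild type reads. Without them the log2 ratio was -1.96, and with each cell weighted equally it was -1.67. Among cells with a Cdh1 read it was 1.61 and among cells without one -2.66. Thinned knockout cells had an Fgf4 read in 5.88% of cases (1.94 to 13.2%) and thinned wild type cells in 16.9% (9.54 to 26.7%). These intervals meet, but they cover counting error only and do not compare the genotypes. The knockout cell with most Fgf4 reads had 188.3 CPM of Cdh1, 2539 CPM of the epiblast gene Utf1, 15.4 CPM of Fgf8 and 7.31 CPM of the streak gene T.

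Fgf10 (ENSMUSG00000021732, chr13:118669791-118792115, plus strand), a ligand of later mesoderm, had sums of 22.02 CPM (21.1 to 22.98) in wild type and 11.8 CPM (11.2 to 12.4) in knockout, a log2 ratio of -0.85. The lowest value was 0 in both groups, the medians were 1.27 and 1.14 CPM, and the highest values were 278.2 and 106.2 CPM. The share of cells with a read after thinning was 38.6% in wild type (28.1 to 49.9%) and 40% in knockout (29.5 to 51.2%). So the sums differed while the median cells and the shares lay close together. The log2 ratio was -0.06 among cells with Y-linked reads, -1.40 among cells without, and 1.08 among cells with a Cdh1 read, where the levels were 8.18 CPM in knockout and 3.33 in wild type.

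The receptor Fgfr1 (ENSMUSG00000031565, chr8:25513654-25575718, plus strand), the main FGF receptor of early mesoderm, was lower in the knockout. Wild type cells had a lowest value of 0, a median of 67.3 and a highest of 335.2 CPM, with a sum of 106.9 CPM (104.8 to 108.97). Knockout cells had a lowest value of 0, a median of 40.3 and a highest of 280.2 CPM, with a sum of 42.1 CPM (40.97 to 43.4). The log2 ratio was -1.32, the ranges overlapped, and 59 of 85 knockout cells lay below the wild type median. The shares of cells with a read after thinning were nearly level, at 83.5% in knockout (73.9 to 90.7%) and 84.3% in wild type (74.7 to 91.4%). The receptor did not pass 2-fold in all settings: the log2 ratio was -0.65 without the deepest 10% of cells, -0.80 after thinning and -0.72 with each cell weighted equally.

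Fgfr2 (ENSMUSG00000030849, chr7:130162451-133123350, minus strand), the receptor of Fgf10, was near the limit of measurement at E6.75. Wild type cells had a lowest and median value of 0 and a highest of 162.1 CPM, with a sum of 6.72 CPM (6.20 to 7.26). Knockout cells had 0, 0 and 131.1 CPM, with a sum of 1.69 CPM (1.46 to 1.94). A read after thinning was found in 10.8% (5.08 to 19.6%) and 7.06% (2.63 to 14.7%) of cells. The log2 ratio of -1.52 was -0.85 with each cell weighted equally, -0.59 after thinning and -0.07 among cells without Y-linked reads.

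**Figure D3:**
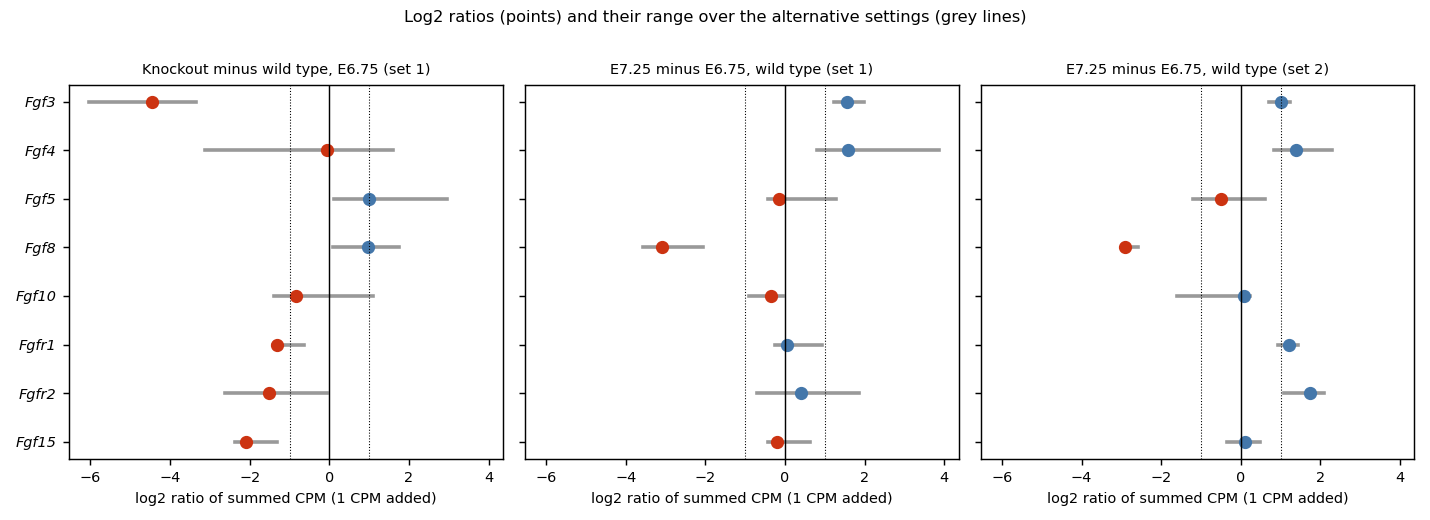
Log2 ratio of summed CPM with 1 CPM added (horizontal axis) for the members and the neighbouring ligand Fgf15 in each comparison; points are the values in the text, grey lines their range over the alternative settings, and dotted lines mark 2-fold. Fgf3 lies at -4.46 in the knockout and at 1.55 and 1.02 between stages, and Fgf8 at 0.96, -3.10 and -2.90.

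Of the other genes of the pathway, Fgf15, the neighbour of Fgf3 and Fgf4, was the other ligand past 2-fold. Of 17 other ligands, 3 reached 5 CPM in the knockout comparison, and Fgf15 alone of them was called, lower. It stood at 164.4 CPM (161.8 to 166.99) in wild type and 38.004 CPM (36.9 to 39.1) in knockout, a log2 ratio of -2.08, with medians of 81.2 and 1.26 CPM. It was past 2-fold lower in all 15 alternatives, at -1.30 or below. Alternatives that changed only the minimum level repeated the main ratio. Of the 3 genes of this stretch of chromosome 7, Fgf3 and Fgf15 were thus lower in the knockout, and Fgf4 had no more than 12.7 CPM in either group. Among 8 other receptors and co-receptors, 2 reached 5 CPM and 0 were called.

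Other genes of the pathway were read against the 8.98% of all genes tested that were called in either direction. Of 13 adaptors and kinases such as Frs2, Grb2 and the Mapk genes, 11 reached 5 CPM and 0 were called, with a median log2 ratio of -0.25. All 12 ERK feedback and response genes reached 5 CPM, with a median of -0.09. Of these, the inhibitor Spry1 was called lower (12.9 to 5.37 CPM, log2 ratio -1.12) and the immediate early gene Egr1 higher (38.8 to 81.8 CPM, 1.06). Spry1 was past 2-fold lower in 9 and Egr1 past 2-fold higher in 7 of 15 alternatives, and both turned in a subset: Egr1 was at -0.55 among cells without Y-linked reads and Spry1 at 0.84 among cells with a Cdh1 read. Of 18 heparan sulfate genes, 17 reached 5 CPM with a median of -0.31, and the sulfotransferase Hs3st3b1 was called lower (38.8 to 10.6 CPM, -1.78).

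Between E6.75 and E7.25 Fgf8 was lower and Fgf3 higher at the later stage in both sets. In set 1, Fgf8 was called lower, where 3.59% of 10730 genes were, and Fgf3 and Fgf4 were called higher, where 6.3% were (9.89% in either direction). In set 2, Fgf8 was called lower, where 2.18% of 10986 genes were, and Fgf3, Fgf4, Fgfr1 and Fgfr2 were called higher, where 4.94% were (7.12% in either direction). The median log2 ratio over the members was 0.06 in set 1 and 1.02 in set 2.

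Fgf8 went from 157.7 CPM (155.2 to 160.3) to 17.5 CPM (16.9 to 18.2) in set 1 and from 230.4 CPM (228.1 to 232.8) to 30.05 CPM (29.5 to 30.6) in set 2. The log2 ratios were -3.10 and -2.90, and 0.121% and 0.0819% of the genes tested were as low or lower. The median cell went from 106.4 to 2.83 CPM in set 1 and from 184.1 to 8.84 CPM in set 2. The ranges overlapped, with highest E7.25 values of 313.8 and 399 CPM, and 3.47% and 1.79% of the E7.25 cells of the sets lay above the E6.75 median. Of all genes tested, 3.59% in set 1 and 2.18% in set 2 were past 2-fold lower. The primitive streak list (9 genes) moved with Fgf8, with sums of 2351 and 1022 CPM in set 1 and 3798 and 1748 CPM in set 2 at E6.75 and E7.25, 5 of 9 genes past 2-fold lower in each set, and its part in the difference was not tested.

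Fgf3 went the other way, from 158.2 to 464 CPM (460.7 to 466.9) in set 1 and from 131.1 (129.4 to 132.9) to 266.7 CPM (265.02 to 268.4) in set 2. The log2 ratios were 1.55 and 1.02. At E7.25 the lowest, median and highest cells were at 0.94, 417 and 1401 CPM in set 1 and at 0, 208.4 and 1338 CPM in set 2. After thinning, 97.7% of E7.25 cells of set 1 (94.2 to 99.4%) and 88.1% of set 2 (82.2 to 92.6%) had an Fgf3 read. In set 2 the difference was at the 2-fold line and lay at 0.97 with TMM factors and at 0.71 among cells without a Cdh1 read. The nascent mesoderm list was also higher at E7.25, with sums of 1831 and 3175 CPM in set 1 and 2110 and 3419 CPM in set 2, and 4 of 8 genes past 2-fold higher in each set. Of all genes tested, 6.3% in set 1 and 4.94% in set 2 were past 2-fold higher. Of measured paraxial mesoderm genes, 5 of 8 in set 1 and 10 of 11 in set 2 were past 2-fold higher. The part of these shifts in the Fgf3 and Fgf4 differences was not tested.

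Fgf4 had sums of 12.7 and 40.2 CPM (39.3 to 41.1) in set 1 and of 7.68 (7.26 to 8.12) and 21.6 CPM (21.1 to 22.1) in set 2, with log2 ratios of 1.59 and 1.38. Its highest E7.25 cells were at 587 and 528 CPM while the medians were 0.93 and 0. A read after thinning was found in 31.8% of E7.25 cells of set 1 (24.9 to 39.3%) and 29.2% of set 2 (22.4 to 36.7%). The log2 ratio was 0.81 and 0.82 in the sets among cells without a Cdh1 read, and 3.86 and 2.29 among cells with one.

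Fgf5 and Fgf10 stayed within 2-fold between the stages. Fgf5 went from 76.4 to 68.2 CPM (67.02 to 69.4) in set 1 and from 81.8 (80.4 to 83.2) to 57.4 CPM (56.7 to 58.2) in set 2, with log2 ratios of -0.16 and -0.50. One E7.25 cell of set 1 reached 1935 CPM of Fgf5 and held 16.5% of its reads. It was also the E7.25 cell of set 1 with most Fgf8 reads, and it had 129.6 CPM of Cdh1 and 10.2 CPM of Mesp1. Among cells of set 1 without Y-linked reads the Fgf5 ratio was 1.28, from 22.5 to 55.98 CPM. Fgf10 went from 22.02 to 16.9 CPM (16.3 to 17.5) and from 25.7 (24.9 to 26.5) to 27.05 CPM (26.5 to 27.6), with log2 ratios of -0.36 and 0.07. In set 2 it was -1.60 among cells with a Cdh1 read.

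The receptors passed 2-fold between the stages in set 2 and not in set 1. Fgfr1 went from 109.7 (108.1 to 111.3) to 255.5 CPM (253.8 to 257.1) in set 2, a log2 ratio of 1.21, and from 106.9 to 111.5 CPM (109.97 to 113.01) in set 1, a log2 ratio of 0.06. Every E7.25 cell of set 2 had an Fgfr1 read after thinning, with a lowest value of 8.92, a median of 216.01 and a highest of 831 CPM. In set 1 the E7.25 cells had a lowest value of 0, a median of 97.2 and a highest of 512 CPM. Fgfr2 went from 7.50 (7.08 to 7.93) to 27.2 CPM (26.7 to 27.8) in set 2 and from 6.72 to 9.11 CPM (8.68 to 9.56) in set 1, with log2 ratios of 1.73 and 0.39. The difference between the sets in these ratios was not tested, and what sets the libraries apart is not named in the labels. In set 1 the Fgfr2 ratio was 1.85 among cells without Y-linked reads and 1.22 among cells without a Cdh1 read.

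Among the other pathway genes, Fgf17, a close relative of Fgf8, was lower at E7.25 as Fgf8 was, from 17.4 to 1.98 CPM in set 1 and from 14.9 to 0.82 CPM in set 2, with log2 ratios of -2.63 and -3.12. Fgf15 differed by less than 2-fold in both sets (-0.21 and 0.11). Of all genes tested, 9.89% were called in either direction in set 1 and 7.12% in set 2. The few calls in the lists below are read against these shares and are descriptions. Of 8 other receptors and co-receptors, Flrt3, a membrane protein that binds FGF receptors, was called higher in set 1 (14.7 to 38.3 CPM) and Fgfr3 in set 2 (0.73 to 13.8 CPM). Of 12 measured adaptors and kinases, Gab1 (4.12 to 10.6 CPM) and Frs2 (11.1 to 24.02 CPM) were called higher in set 1 and 0 in set 2. The Gab1 ratio was -0.17 among cells with a Cdh1 read and the Frs2 ratio -0.38 among cells without Y-linked reads, and 1 cell held 35.8% of the Frs2 reads at E7.25 in set 1. Of the 12 feedback genes, Dusp4 was called higher (12.6 to 28.4 CPM) and Egr1 lower (38.8 to 5.35 CPM) in set 1, and Il17rd lower in set 2 (62.3 to 23.8 CPM). Of 17 measured heparan sulfate genes, Gpc4 was called higher in set 1 (12.7 to 28.6 CPM) and 0 in set 2. The set 1 calls of Flrt3, Gab1, Frs2, Dusp4 and Gpc4 depended on the setting: they were past 2-fold in 8, 10, 7, 9 and 9 of 15 alternatives. Among cells without Y-linked reads the ratio was 0.17 for Flrt3 and 0.06 for Dusp4, and among cells with a Cdh1 read 0.46 for Gpc4.

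To see which cells carry each gene, cells were clustered within each group and set without the FGF members and without the genes that separate the sets. The clusters are given by number and by genes that lead them, with no cell type name, and their FGF levels are descriptions. At E6.75 in wild type, Fgf8 and Fgf5 were highest in the same cluster and Fgf10 in another. With coarser clusters (Leiden resolution 0.5) this was so in set 1 but not in set 2, where of 2 clusters one had more Fgf5 (97.6 against 57.02 CPM) and Fgf10 (31.99 against 15.9 CPM) and the other more Fgf8 (248.2 against 219.03 CPM). In set 1, cluster 2 (26 cells, 25 with Y-linked reads, with Nodal and Prickle1 among its leading genes and Cdh1 at 51.5 CPM) had 248.4 CPM of Fgf8, 153.8 of Fgf5 and 7.38 of Fgf10. Cluster 1 of that set (33 cells, led by Hand1, with Msx2 and Phlda2) had 38.4 CPM of Fgf10, 74.8 of Fgf8 and 22.9 of Fgf5. Y-linked reads were present in 13 of its 33 cells. The part of this difference from cluster 2 in the FGF levels was not tested. In set 2, cluster 4 (16 cells, led by Tgfbr3 and Pkdcc, with Cldn6 and Foxa2) had 432 CPM of Fgf8, 268.1 of Fgf5 and 22.9 of Fgf3. Cluster 1 of set 2 (29 cells, led by Kdr, with Lefty2 and Etv2) had 247.1 CPM of Fgf3 and 43.3 of Fgf10, with 148.1 of Fgf8 and 39.6 of Fgf5. In set 1 Fgf3 was instead highest in cluster 3 (16 cells, led by Ptpru) at 217.9 CPM, with 161.2 CPM in cluster 1. With coarser clusters Fgf3 was at 161.2 and 156.9 CPM in the 2 clusters of set 1. Fgfr1 ran from 67.7 to 135.8 CPM over the 4 clusters of set 1 and from 97.02 to 117.7 CPM over those of set 2.

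In the knockout the 3 clusters had Fgf8 at 222.5 to 356.7 CPM and Fgf5 at 129.03 to 194.1 CPM, and none had more than 11.4 CPM of Fgf3. With coarser clusters (Leiden resolution 0.5) the knockout cells were not split. Cluster 2 (28 cells, all with Y-linked reads, with Slc7a3 and Utf1 among its leading genes) had the most Fgf8 and Fgf4 (25.4 CPM) and the least Fgf5 and Fgf10 (8.54 CPM). These places of Fgf4 and Fgf8 rest on 1 cell each: 1 cell held 99.5% of the cluster's Fgf4 reads and without it Fgf4 was at 0.16 CPM, and without the cell with most Fgf8 reads in each cluster Fgf8 was at 274.4 CPM, below the 295.1 CPM of cluster 3. One cell likewise held 80.8% of the Fgf3 reads of cluster 3, which had 2.35 CPM without it. Fgfr1 ran from 31.1 CPM in cluster 2 to 64.97 CPM in cluster 1 (34 cells). Every knockout cluster thus had less Fgf3 than any wild type cluster of set 1, where the lowest was 116.04 CPM.

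At E7.25 the members were not all highest in the same cluster. In set 2, Fgf4 was highest in cluster 1 (47 cells, led by Hoxb1 and T, with Tbx6) at 47.4 CPM, where Fgfr1 was also highest at 356 CPM. Fgf8 was highest in cluster 2 (38 cells, with Tdgf1, Gsc and Lhx1) at 61.4 CPM and in cluster 5 (20 cells, with Lhx1, Sfrp1 and Gsc) at 58.6 CPM, and cluster 5 also had the most Fgf3 (476 CPM) and Fgf5 (248.8 CPM). Fgf10 was highest in cluster 3 (25 cells, with Tbx3, Kdr and Msx2) at 88.5 CPM, where Fgf4 was at 0.19 CPM. Fgfr2 was highest in cluster 6 (15 cells, led by Hand1 and Bmp4) at 99.3 CPM and in cluster 4 (23 cells, with Cer1, Alx1 and Tcf15) at 60.7 CPM, while clusters 3 and 6, both with Hand1 and Msx2 among their leading genes, had 4.31 and 99.3 CPM of it. Cluster 6 had 40.99 CPM of Fgf10 and 0.15 CPM of Fgf5.

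Set 1 showed the same parting of Fgf4 and Fgf10 at E7.25. Its clusters differed in Y-linked reads. These were present in 1 of 49 cells of cluster 1, 25 of 38 of cluster 2 and 27 of 31 of cluster 3. In clusters 4 and 5 they were present in 25 of 28 and 17 of 27 cells. The part of this difference in the FGF levels was not tested. Cluster 3 (31 cells, led by Apln and Cldn6, with T) had the most Fgf4 (102.6 CPM), Fgf5 (113.5 CPM) and Fgf8 (43.4 CPM) and 2.40 CPM of Fgf10. One cell held 50.8% of the Fgf5 reads of this cluster, and without it Fgf5 was at 57.6 CPM, below the 76.2 CPM of cluster 1 without its own such cell. Cluster 2 (38 cells, led by Capn6, Hand1 and Bmp4) had the most Fgf10 (43.7 CPM) and Fgfr2 (20.9 CPM) and 3.18 CPM of Fgf4. Fgf3 was the most even ligand there, at 416 CPM or more in 4 of the 5 clusters, with 558 CPM in cluster 5 (27 cells, with Jag1 and Lefty2) and its lowest level in cluster 3. Without the cell with most Fgf3 reads in each cluster, the highest Fgf3 level was in cluster 4, at 672 CPM, where it was 536 CPM with that cell.

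**Figure D4:**
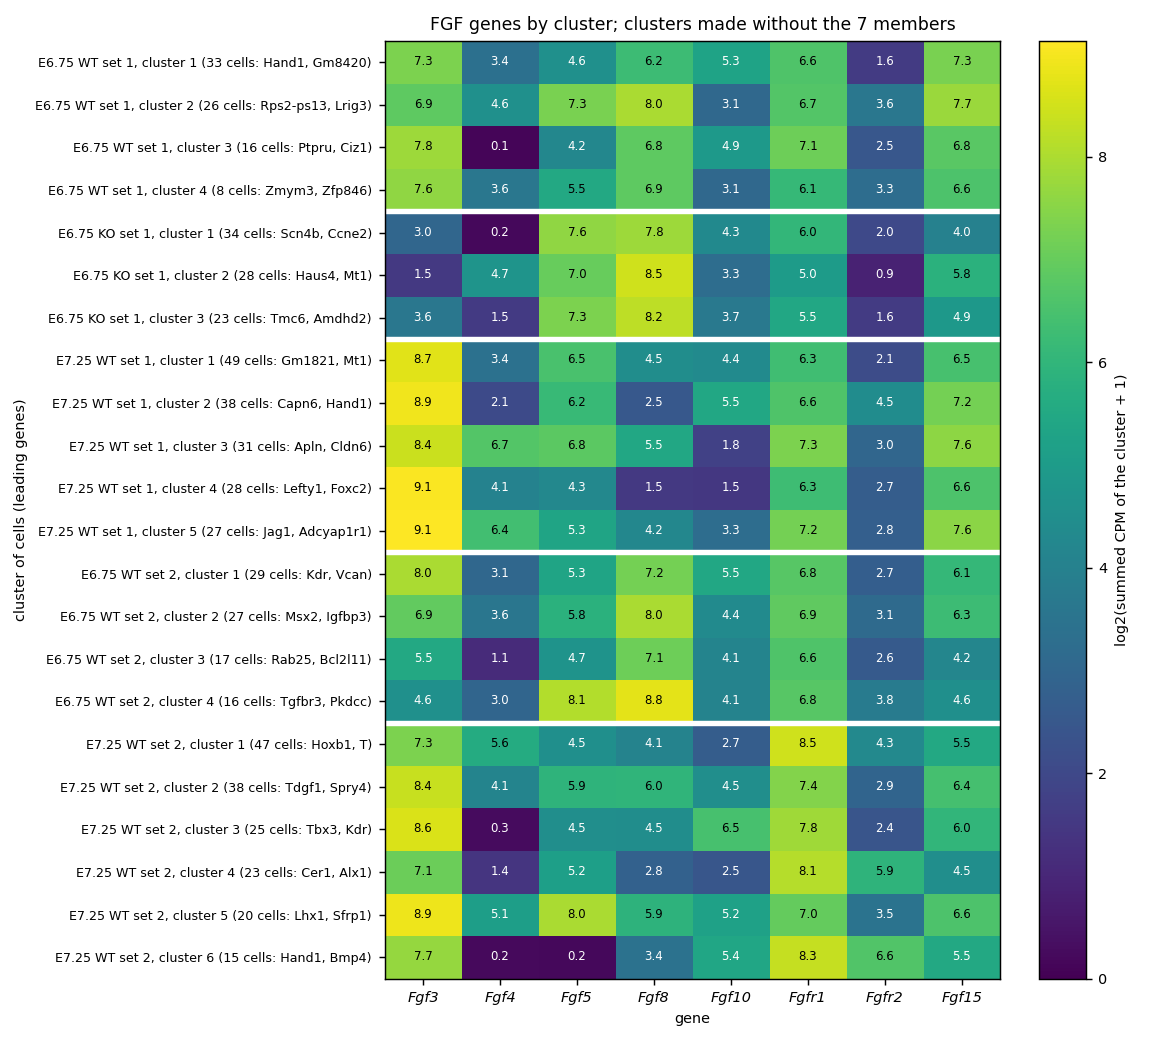
Summed level of each member and of Fgf15 (columns; colour and printed value are log2 of CPM + 1) in each cluster of cells (lines, with cell number and 2 leading genes), grouped by stage, genotype and library set. Fgf3 is low in the 3 knockout clusters, and Fgf4 and Fgf10 are highest in different clusters at E7.25. Fgf8 and Fgf5 are highest in the same cluster in both sets of E6.75 wild type. With coarser clusters, which are not plotted, this held in set 1 but not in set 2.

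Most cells carried several ligands. After thinning, 32 of 83 wild type cells at E6.75 in set 1 had reads of 3 of the 5 ligands and 17 had reads of 4, while 40 of 85 knockout cells had reads of 2 and 34 had reads of 3. At E7.25, 59 cells of set 1 (34.1%) and 55 of set 2 (32.7%) had reads of 3. All 55 cells of set 1 with an Fgf4 read at E7.25 also had an Fgf3 read, which is 32.5% of the Fgf3 cells, and in set 2 it was 45 of 49, or 30.4% of the Fgf3 cells. Of all cells of these groups, 97.7% and 88.1% had an Fgf3 read. Fgf4 and Fgf10 were read together in 13 cells of set 1 (23.6% of the Fgf4 cells and 23.2% of the Fgf10 cells) and in 17 cells of set 2 (34.7% and 22.4%). Of all E7.25 cells, 32.4% in set 1 and 45.2% in set 2 had an Fgf10 read, and 31.8% and 29.2% an Fgf4 read. An Fgfr1 read was present in 35 of the 38 cells of set 1 with an Fgfr2 read, where 89.02% of all cells had one, and in set 2 in every cell.

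Correlations of log2(CPM + 1) over thinned cells were taken within each of the 4 wild type sets of cells, which share stage and library set, and are given as medians over them, as descriptions. Of 9223 genes ranked for Fgf3, the most like were Chst2 (0.42), Fgf15 (0.41), Lefty2 (0.40), Hs3st3b1 (0.39) and Dll3 (0.37). Fgf4 was most like Fgf15 (0.33) and Apln (0.31). Fgf5 was most like Otx2 (0.36), Emb (0.33), Tgfbr3 (0.33), Fgf8 (0.31) and Pkdcc (0.31). Among the genes most like Fgf8 were Apln (0.41), Nanog (0.36), Fst (0.32) and Sp5 (0.32), and Fgf10 was most like Prdm6 (0.45), Kdr (0.41), Lrrn4 (0.35), Etv2 (0.35) and Peg3 (0.34). The genes named here as most like a member correlated positively with it in each of the 4 sets of cells, but some weakly. At E7.25 in set 1 the value with Fgf3 was 0.11 for Chst2 and 0.06 for Hs3st3b1. It was 0.05 for Apln with Fgf8 at E7.25 in set 2, and 0.07 for Emb with Fgf5 at E6.75 in set 1. No gene reached a median of 0.3 for Fgfr1 or Fgfr2. With Cdh1 the median was -0.41 for Fgf3, 0.37 for Fgf8, 0.25 for Fgf5 and -0.27 for Fgf10. In knockout cells the correlation with Cdh1 was 0.00 for Fgf3, which 15 of 85 thinned cells had, 0.08 for Fgf8, -0.01 for Fgf5 and -0.23 for Fgf10.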

How the data were processed

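Single cells were sorted for Mesp1-GFP and sequenced as single-cell libraries from plates, made with the Nextera XT kit, per the labels' protocols, whose text otherwise describes adult bone marrow. The authors deposited raw read counts per gene and cell; the submitters' processing notes list GSNAP 2015-09-29, HTSeq 0.5.3p3 and the build mm10. Annotation release, strand setting and parameters: not given in the sources used here. So reads cannot be assigned by strand: 2.67% of Fgf10, 1.66% of Fgfr1 and 3.04% of Fgfr2 exonic bases overlap another gene. The labels name no molecular identifiers, so counts are of reads.

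The members and gene lists were chosen with earlier results of these data known. Of 40912 identifiers, 40254 matched a symbol, 0 columns had no sample and 0 libraries were identical. Coordinates and exon lengths are from GENCODE M21 (GRCm38, the assembly of mm10) and promoter windows from RefSeq. The groups held 172 (E6.75 wild type), 85 (knockout) and 341 cells (E7.25 wild type). Library set 1 (83, 85 and 173 cells; set 2: 89 and 168) is cells with reads of at least 5 of 8 genes: Dusp15, Foxe1, Hoxd13, Kcnk12, Pou3f3, Six3, Sox3 and Vax1; Y-linked means over 3 CPM summed over Eif2s3y, Uty and Kdm5d. Reads were summed per group and set and scaled to CPM; log2 ratios have 1 CPM added, so differences of low genes come out too small. Depth per cell ran from 101895 to 14159574 reads, and all cells were kept. For shares of cells each cell was thinned to 100000 reads. Named genes were the members, the called genes of each list (up to 4 per direction) and up to 5 genes per member with a median correlation of at least 0.3, read in at least 20% of thinned cells. Some genes that this rule or the clusters would name are not reported here. Genes named beside clusters or as examples were chosen after their values were seen. Clusters used the 2000 most variable genes, 20 principal components, 15 neighbours and Leiden resolution 1 (leidenalg 0.10.2); no doublet caller was run. The ratio step was run on simulated counts of 40912 genes, where it called 200 of 200 genes changed 4-fold and 0 unchanged genes. Simulated cells of a group shared the same expression profile and differed by counting error only. So the simulation does not measure false calls that come from differences between cells. edgeR 4.0.16 and DESeq2 1.42.0 gave scaling factors for alternatives only, with Python 3.11.15 and R 4.3.3 used.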

Additional observations from a re-analysis of the deposited data

How the results depend on the processing

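Each group is 1 sample, and the deepest cells weigh most in sums, so the low members Fgf4 and Fgfr2 rest on few cells. No paired analysis was possible because the results come from no test and the numbers in the labels only name cells. The log2 ratios of Fgf3 and Fgfr1 in the knockout were negative in all 15 alternatives (-6.04 to -3.35 and -1.43 to -0.65), those of Fgf5 and Fgf8 positive in all 15 (0.12 to 2.96 and 0.10 to 1.74), and Fgfr2 negative in all 15 (-2.63 to -0.07), while Fgf4 (-3.13 to 1.61) and Fgf10 (-1.40 to 1.08) took both signs. The alternatives without a minimum level and with a minimum of 20 CPM changed only which genes could be called. Their log2 ratios repeated the reported ones, so their agreement in counts over the alternatives was fixed in advance. Members called lower in the knockout numbered 2 to 4 over the alternatives, Fgf3 among them in each. The count called higher in the knockout, 0 as reported, was 2 (Fgf5 and Fgf8) with TMM factors, with median-of-ratios factors, without the deepest 10% of cells, among cells without Y-linked reads, without the cell with most reads of the gene and among cells without a Cdh1 read. It was 2 (Fgf4 and Fgf10) among cells with a Cdh1 read and 1 (Fgf5) with each cell weighted equally and after thinning. Members called higher at E7.25 numbered 4 in place of 2 in set 1 among cells without Y-linked reads, and 2 in place of 4 in set 2 with 10 CPM added and among cells without a Cdh1 read. Members called lower in set 2 numbered 3 in place of 1 among cells with a Cdh1 read. The splits by Cdh1 and the removal of the cell with most reads were added after the data were seen. Called genes outside the members that turned were Egr1 (-0.55) and Frs2 (-0.38) without Y-linked reads, and Spry1 (0.84) and Gab1 (-0.17) among cells with a Cdh1 read. The cause of these changes was not tested. The median gene lay within 0.1 of 0 on the log2 scale except in the knockout comparison over cells of both sets, at -0.10. Shares of cells with a read were higher in 33 of 35 cases after thinning to 500000 reads with shallower cells left out. At Leiden resolution 0.5 the highest cluster level was lower in 24 of 28 cases. These cases leave out the knockout, whose cells were not split at that resolution. Without the cell with most reads of the gene in each cluster, an alternative also added after the data were seen, 31 of 35 highest levels stayed in their cluster; the 4 others were Fgf3 and Fgf8 in the knockout and Fgf3 and Fgf5 at E7.25 in set 1.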
